A study of Bos taurus with 19 samples.

Results

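The genes described here are 3 genes of MHC class II antigen presentation, chosen by identifier from the 25670 genes counted in subcutaneous adipose tissue of young bulls: ENSBTAG00000015228 (CD74), ENSBTAG00000010645 (BOLA-DRA) and ENSBTAG00000013919 (BOLA-DRB3). The count files list identifiers without symbols, and the RefSeq gene table used here (assembly ARS-UCD2.0) gives no Ensembl identifier, so the symbols are those under which the identifiers were chosen and were not checked against a table. That table holds 3 entries under these symbols. It places BOLA-DRB3 and BOLA-DRA on the same chromosome, with BOLA-DRB2, another DR beta gene, among the genes between them. All 3 genes were read in every animal and were among the 10064 genes tested for an effect of diet.

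MHC class II molecules sit on the surface of antigen-presenting cells such as macrophages, dendritic cells and B cells, and hold peptides of ingested proteins out to helper T cells. In cattle the DR molecule is a pair of an alpha chain, encoded by BOLA-DRA, and a beta chain, encoded mainly by BOLA-DRB3, a gene known for its many alleles. CD74 is the invariant chain: it joins new class II molecules in the endoplasmic reticulum, blocks the peptide groove and guides the complex to the endosome, where it is cut away. These genes share the transactivator CIITA and rise with interferon gamma. In adipose tissue class II is known chiefly from resident macrophages, and adipocytes can carry it as well.

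The animals were male Holstein Friesian calves on a high plane of nutrition, labelled with a growth rate of 1.08 kg/day (High, n = 10), or on a low plane, labelled with 0.5 kg/day (Low, n = 9). The study assigned 10 calves to each diet, and not every Low calf is among these libraries. High calves had the larger allowance of milk replacer and free access to concentrate, and Low calves had a restricted allowance of both. Flank fat was taken at 126 days of age, rinsed and cleared of blood vessels, and each animal gave 1 RNAseq library of whole tissue. The study reported that adipocytes on stained sections were far fewer and smaller in Low than in High, so the tissue of the diets differed in make-up. In such tissue, fewer cells of a type and less RNA per cell cannot be told apart, and no marker of a cell type could be looked up without symbols, so the cells that carried these transcripts and the labelled tissue were not examined.

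Reads counted on genes ranged from 8608800 to 17691547 per High library and from 7656100 to 12348770 per Low library. Log2 totals were on average lower by 0.31 in Low, a difference with p = 0.0247 in a two-sided exact permutation test (92378 splits of the 19 animals). Levels are given as CPM (reads of a gene scaled to library size) after normalization by the trimmed mean of M-values (TMM). The TMM factors, which correct for the make-up of a library, ran from 0.829 to 0.987 in High and from 1.05 to 1.15 in Low, without overlap. Per the methods of the study, calves were blocked on sire, farm, age and starting weight before they were put on a diet. The block and the sequencing lane of each animal were not used here, so the tests ignore the blocks and no value within a lane could be given.

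None of the 3 genes differed between the diets by the quasi-likelihood F test of edgeR at a Benjamini-Hochberg adjusted p (FDR) below 0.05, a threshold that 37.2% of all genes tested passed and that 7.26% passed with a fold change above 2. CD74 had the higher mean in Low and both DR chain genes had the higher mean in High. For each gene the values of the diets overlapped. The read ratio of BOLA-DRA to CD74 within a library did differ. It was lower in every Low animal than in any High animal, a separation shown in that direction by 0.626% of the genes set against CD74.

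CD74, the invariant chain, ran from 867 to 1611 TMM-normalized CPM in High, with a median of 1041. In Low it ran from 936 to 2357, with a median of 1290. The ranges overlapped, although 8 of the 9 Low animals lay above the High median and 2, D79 and D77, above every High animal. The mean was 1135 ± 275 in High (SD, n = 10) and 1415 ± 412 in Low (SD, n = 9). The log2 fold change of Low against High was 0.32 (SE 0.162, 95% interval -0.02 to 0.66), with an edgeR adjusted p of 0.125. In fold terms the interval runs from 0.988 to 1.57, and so holds a rise in Low of up to that size.

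The CD74 result was the only one of the 3 gene tests whose call turned on the scaling. With libraries scaled by total counts alone the log2 fold change was 0.59 and the edgeR adjusted p 0.00837. The median of all genes then moved from 0.02 to 0.30 and 45.9% of all genes were called higher in Low, so that relative to the median gene CD74 was at 0.29 under total counts and at 0.30 under TMM. Animal D77 carried part of the difference, as CD74 was at 0.19 without it (edgeR adjusted p = 0.309). Leaving out the High animal D75 instead put CD74 at 0.39 (edgeR adjusted p = 0.0585), which came close to a call without reaching it.

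BOLA-DRA, the DR alpha chain, ran from 269 to 641 CPM in High with a median of 376. In Low it ran from 223 to 703 with a median of 354. The Low group held both the lowest animal, D66, and the highest, D77, and the diets overlapped over most of their ranges. Group means were 413 ± 129 (SD, n = 10) in High and 369 ± 136 (SD, n = 9) in Low. The log2 fold change was -0.16 (SE 0.198, 95% interval -0.57 to 0.25), with an edgeR adjusted p of 0.540. Its sign turned with total count scaling, to 0.11, and relative to the median gene it was -0.19 there and -0.18 under TMM. Single animals moved it to -0.34 (without D77) and to -0.07 (without D71), neither of which was called.

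BOLA-DRB3, the DR beta chain, varied most. In High it ran from 28.4 to 160 CPM with a median of 46.5, and in Low from 28.7 to 101 with a median of 40.05. A few animals of each diet stood high. They were D64 at 160, D75 at 118, D65 at 94.0 and D71 at 76.5 in High, and D69 at 101, D70 at 68.8 and D77 at 65.7 in Low. The mean was 66.4 ± 45.3 in High (SD, n = 10) and 51.0 ± 23.7 in Low (SD, n = 9), and the log2 fold change of -0.38 (SE 0.343, 95% interval -1.09 to 0.33) had an edgeR adjusted p of 0.399. The voom method of limma with sample quality weights, which fits log2 values and gives less weight to discordant libraries, put it at -0.04. How much of that shift came from the log2 scale and how much from the weights was not tested. Without D64 it was -0.13, and without D69 it was -0.58.

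**Figure D1:**
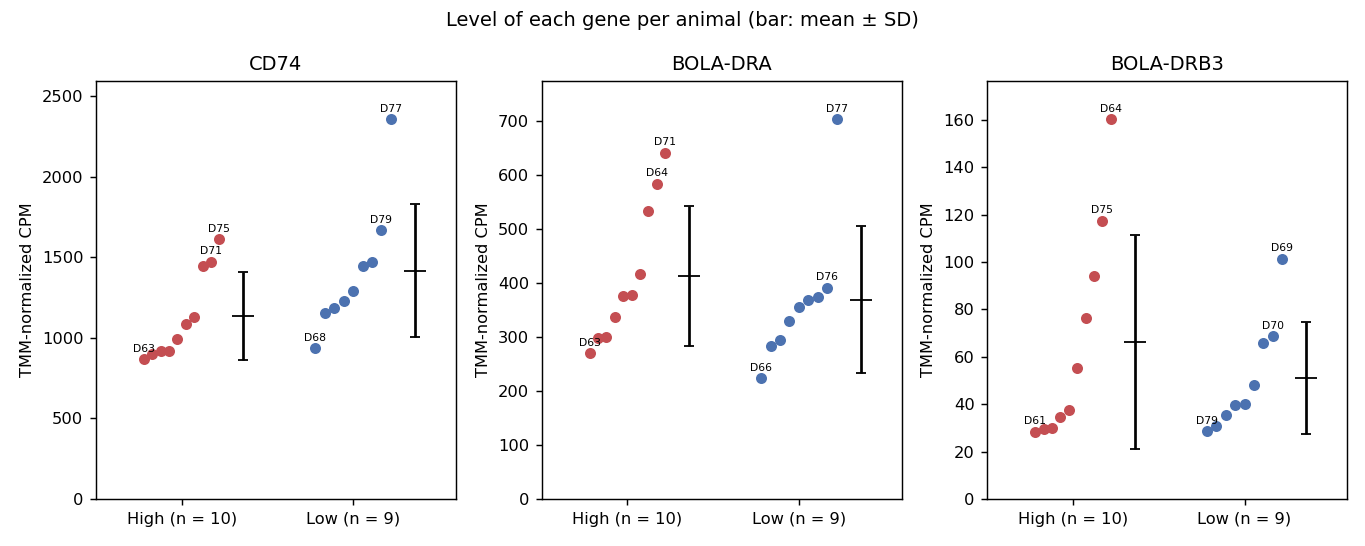
Level of CD74, BOLA-DRA and BOLA-DRB3 in TMM-normalized CPM (vertical axes from 0) in each High (n = 10) and Low (n = 9) animal, ordered by value from left to right within a diet, with the lowest and the 2 highest animals named and a bar for the mean ± SD. The diets overlap for each gene, D77 is the highest Low animal for CD74 (2357) and BOLA-DRA (703), and BOLA-DRB3 reaches 160 in D64.

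Counting error was small beside this spread. The smallest count of any of the 3 genes was 265 reads of BOLA-DRB3 in D61, with an exact 95% Poisson interval of 234 to 299 that covers counting error only, or a counting coefficient of variation of 6.14%. The coefficient of variation between animals of BOLA-DRB3 was 68.2% in High and 46.5% in Low. That of BOLA-DRA was 31.3% and 36.9%, and that of CD74 was 24.3% and 29.1%. In the edgeR fit, which takes diet out, the biological coefficient of variation of BOLA-DRB3 was 0.510, higher than in 97.0% of the 500 genes nearest to it in expression. BOLA-DRA, at 0.310, was above 73.8% of its 500 nearest genes, and CD74, at 0.262, above 60.8%.

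BOLA-DRB3 has many alleles and near copies, and the alignment kept only unique reads with fewer than 2 mismatches to the reference. Reads of an allele unlike the reference, or shared with BOLA-DRB2, would be left out of its counts, so its level is uncertain in each animal. The part of this in the spread was not tested.

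A ratio of 2 genes within a library does not depend on library size or scaling. It is given as reads of one gene per 100 reads of the other, and not as molecules, since no transcript lengths were used. In High, 31.1 to 43.5 reads of BOLA-DRA were counted per 100 reads of CD74. In Low it was 17.6 to 30.1. Every Low animal lay below every High animal, the nearest being D68 in Low at 30.1 and D63 in High at 31.1, which sit close together. On the log2 scale the mean was -1.48 ± 0.15 (SD, n = 10) in High and -1.96 ± 0.29 (SD, n = 9) in Low. The difference of -0.48 (95% interval -0.70 to -0.27, from inverting the permutation test) corresponds to a ratio 0.717 times that of High. The difference of medians was smaller, -0.32 (exact permutation adjusted p = 0.0218). For the difference of means, the two-sided exact permutation p was 1.08e-05, the smallest that 92378 splits can give. After Benjamini-Hochberg adjustment over the 3 ratios tested, the p of the means was 3.25e-05. That adjustment does not cover the choice of genes and tests, which was made with earlier results of these data known.

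For comparison, each of the 10063 other genes tested was set against CD74 in the same way, a count added after the BOLA-DRA ratio was seen. The diets did not overlap, with Low below High, for 63 of them including BOLA-DRA, which is 0.626%. With BOLA-DRA as the divisor, 34 genes including CD74 stood higher in Low without overlap, or 0.338%. The share of all genes whose ratio to CD74 would pass the permutation test was not computed, so the p has no such background beside it. The ratio shows that these genes changed unequally between the diets, not which of them moved.

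The Low animals also differed among themselves in this ratio. D79 at 17.6 and D66 at 18.8 reads of BOLA-DRA per 100 of CD74 lay apart from the other Low animals, which ran from 25.02 to 30.1. D79 had the second highest CD74 level of the Low animals, 1670 CPM, with a BOLA-DRA level of 294, whereas D66 had the lowest BOLA-DRA level, 223 CPM. D77, the animal with the most of both transcripts, had a ratio of 29.8, within the range of the other Low animals. Leaving out any 1 animal left the difference between -0.51 and -0.41 on the log2 scale. Since the diets do not overlap, the permutation p is then the smallest possible whichever animal is left out, and says nothing more.

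The ratios that involve BOLA-DRB3 did not pass the test. Reads of BOLA-DRB3 per 100 reads of CD74 ran from 2.62 to 11.1 in High and from 1.72 to 8.28 in Low, with a log2 difference of -0.53 (95% interval -1.22 to 0.16, exact permutation adjusted p = 0.182). Between the DR chains, 7.56 to 31.4 reads of BOLA-DRB3 were counted per 100 of BOLA-DRA in High and 9.35 to 28.7 in Low. The log2 difference there was -0.05 (95% interval -0.67 to 0.57, exact permutation adjusted p = 0.858), an interval wide enough to hold the size seen for BOLA-DRA over CD74. The highest beta to alpha ratios were in D65 at 31.4, D69 at 28.7, D64 at 27.5 and D75 at 22.1, which were animals of both diets.

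**Figure D2:**
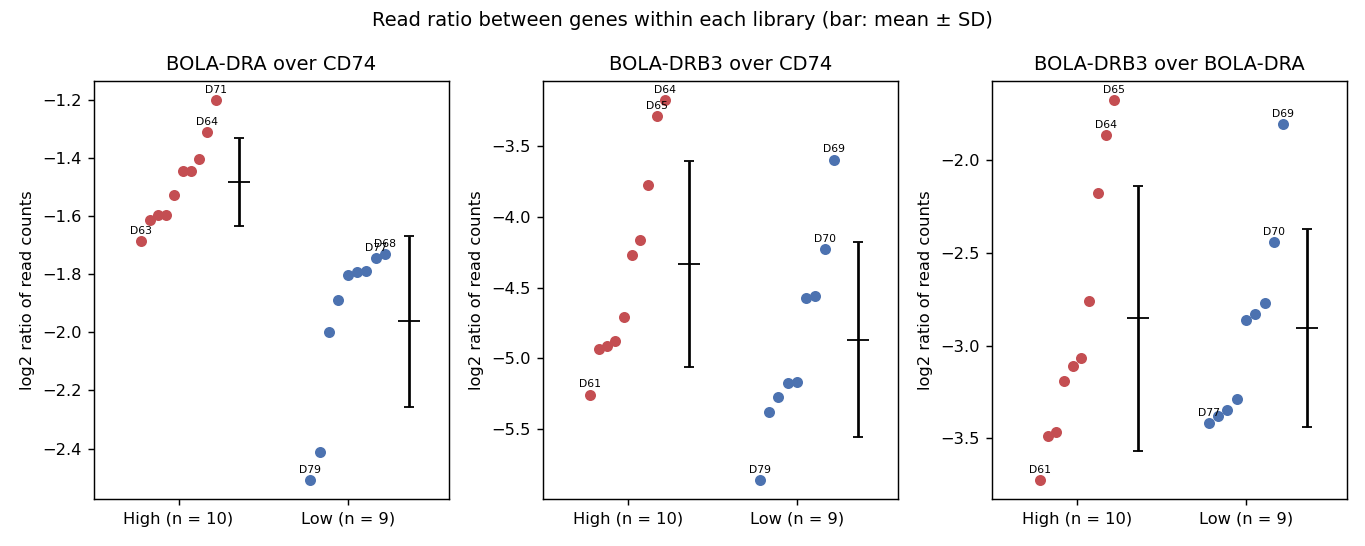
Log2 ratio of read counts between 2 genes of the same library (vertical axis) in each High (n = 10) and Low (n = 9) animal, ordered by value within a diet, with the lowest and the 2 highest animals named and a bar for the mean ± SD. BOLA-DRA over CD74 separates the diets, from -1.69 to -1.20 in High and from -2.51 to -1.73 in Low, while both ratios of BOLA-DRB3 overlap.

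In High, CD74 and BOLA-DRA moved together between animals. Their log2 levels there had a Pearson r of 0.955 (permutation p = 0.00014 from 100000 resamples, 0.00084 after adjustment over the 6 relations computed) and a Spearman rho of 0.952 (permutation p = 0.00018, adjusted p = 0.00108). Without D71 and D75, the animals farthest from the CD74 median, r was 0.975. In Low the relation did not pass after adjustment: r was 0.765 (exact permutation p = 0.0293, adjusted p = 0.0586) and rho 0.633 (exact permutation p = 0.0760, adjusted p = 0.145). Without D68 and D77 it fell to an r of 0.217, so the Low value rests on those animals. The 2 levels of an animal share 1 library and 1 scaling factor.

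None of the 4 relations of BOLA-DRB3 passed after adjustment. With CD74, r was 0.703 in High (permutation p = 0.0284, adjusted p = 0.0586; rho 0.636, permutation p = 0.0535, adjusted p = 0.145) and 0.08 in Low (exact permutation p = 0.841, also adjusted; rho -0.08, exact permutation p = 0.843, also adjusted). With BOLA-DRA, r was 0.658 in High (permutation p = 0.0432, adjusted p = 0.0648; rho 0.564, permutation p = 0.0968, adjusted p = 0.145) and 0.521 in Low (exact permutation p = 0.149, adjusted p = 0.179; rho 0.567, exact permutation p = 0.121, adjusted p = 0.145). Leaving out the 2 animals farthest from the median of the first gene gave an r of 0.608 and -0.49 with CD74 and of 0.478 and 0.387 with BOLA-DRA, in High and Low. Whether a relation differed between the diets or between pairs of genes was not tested.

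**Figure D3:**
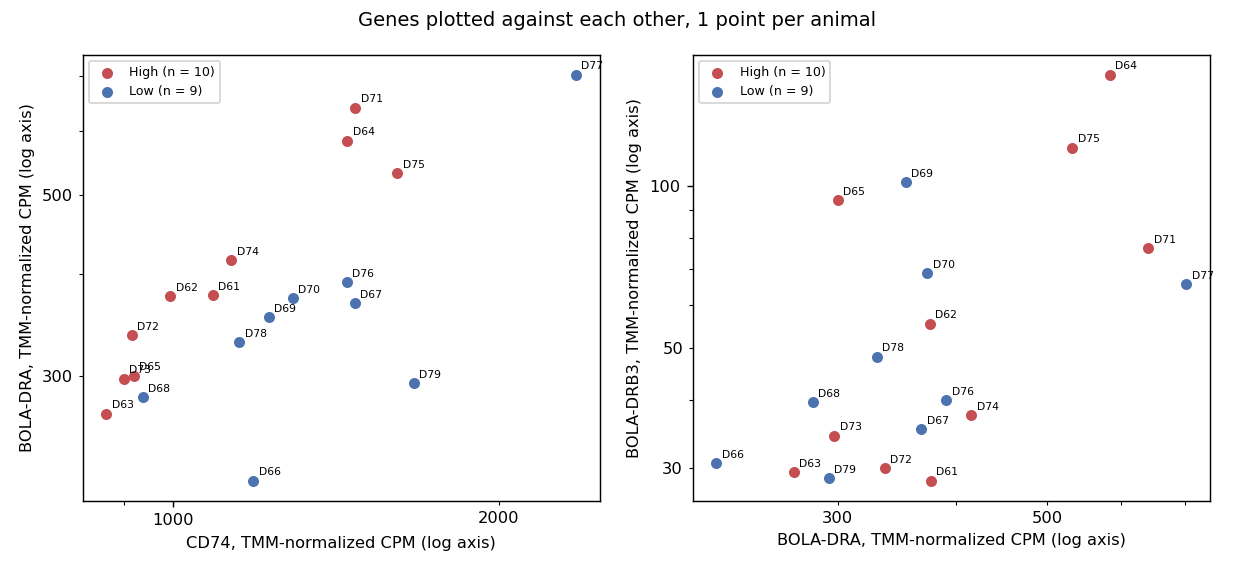
BOLA-DRA against CD74 (left) and BOLA-DRB3 against BOLA-DRA (right), in TMM-normalized CPM on log axes, with 1 named point per animal (High n = 10, Low n = 9). On the left the High animals form a tight band (r = 0.955 on log2 levels) and the Low animals lie at less BOLA-DRA for a like CD74 level, D66 and D79 lowest of all. On the right the points scatter.

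Likeness to all other genes was described over the 19 animals with diet means subtracted, so that it does not rest on the diet difference. Spearman's rho between CD74 and BOLA-DRA was 0.835. Of the 10063 other genes, BOLA-DRA ranked 3 in likeness to CD74, and CD74 ranked 2 in likeness to BOLA-DRA, where the median gene had a rho of 0.004 and 0.007. BOLA-DRB3 ranked 152 in likeness to BOLA-DRA (rho 0.568) and 855 in likeness to CD74 (rho 0.388). The points share their libraries and scaling, and these values are a description.

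The genes most like the mean of the 3 could be given only by identifier, and their function is not known here. ENSBTAG00000008954 had a rho of 0.846 to that mean and ENSBTAG00000031231 a rho of 0.804. Of the 10 genes with the highest rho, 6 were called higher in Low, 0 lower and 4 were not called, beside 37.2% of all genes called in either direction. The share of all genes called higher in Low with TMM was not computed, so the direction of the 6 cannot be set against it. The 4 that were not called had log2 fold changes of -0.21 to 0.17 (edgeR adjusted p = 0.156 to 0.921). Both genes given by identifier rose in Low, with log2 fold changes of 0.73 (SE 0.229, edgeR adjusted p = 0.0167) and 0.91 (SE 0.282, edgeR adjusted p = 0.0161). Whether their change differed from that of the class II genes was not tested.

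**Figure D4:**
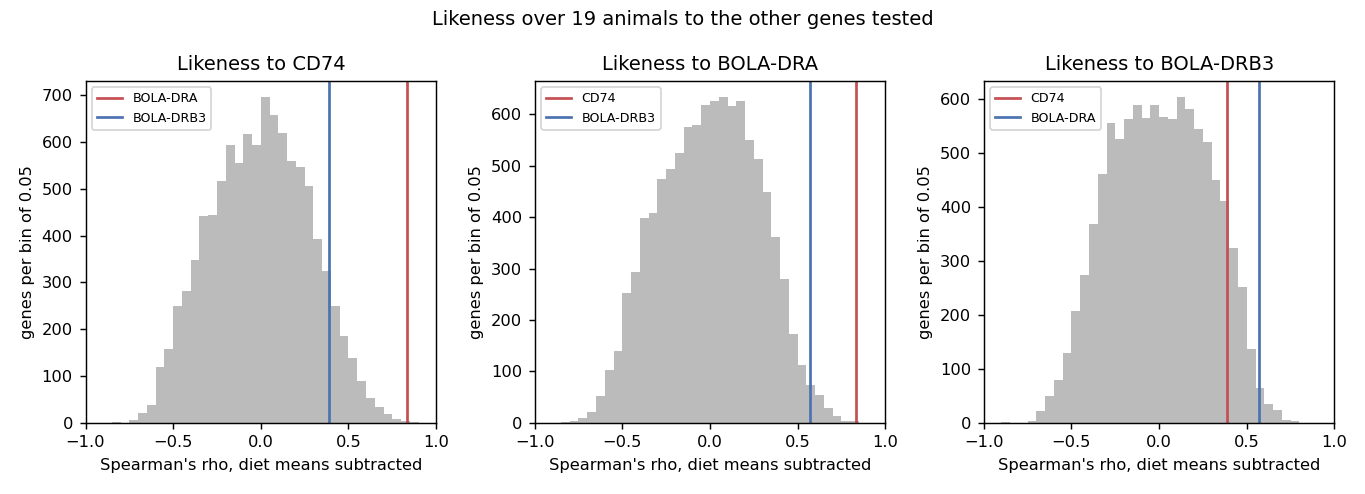
Number of genes (vertical axis) by Spearman's rho to CD74, BOLA-DRA and BOLA-DRB3 (horizontal axes, bins of 0.05) over 19 animals with diet means subtracted, with coloured lines at the other class II genes. CD74 and BOLA-DRA lie at the far right of each other's distribution (rho 0.835), while BOLA-DRB3 lies nearer the bulk (rho 0.388 to CD74 and 0.568 to BOLA-DRA).

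**Figure D5:**
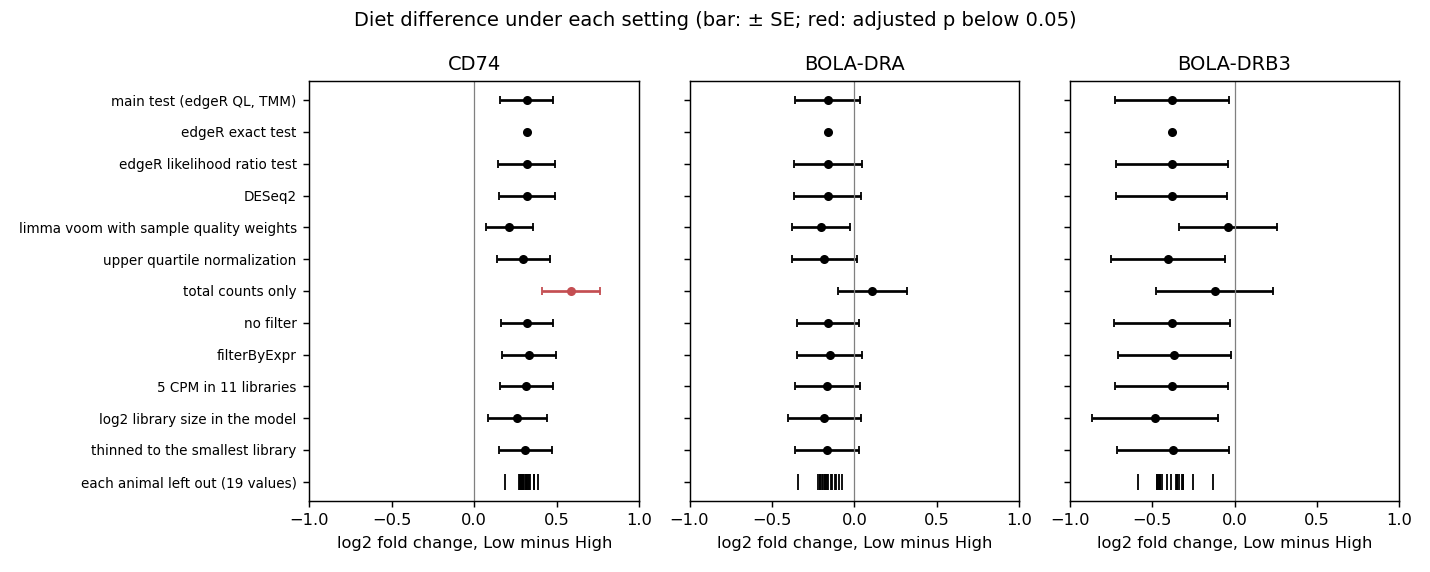
Log2 fold change of Low against High (horizontal axis) for each gene under the main test, 11 alternative settings and each animal left out in turn (19 ticks), with bars for ± SE where the method gives one and red for an adjusted p below 0.05. Only CD74 with total counts only, at 0.59, is red, and BOLA-DRA changes sign only there, at 0.11.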

How the data were processed

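RNA of 19 adipose samples was sequenced as single-end mRNA libraries. The authors aligned reads to the bovine genome (UMD3.1) with STAR, kept unique alignments, and deposited raw counts per Ensembl gene from HTSeq, with no normalization. Diets were taken from the sample titles. Each title holds a code of its own, and each code was taken here as a separate animal. Between libraries of a diet, the smallest chi-square per degree of freedom was 25.2 over 45 High pairs and 28.9 over 36 Low pairs. These values are far above sampling noise, which shows libraries that differ but cannot by itself show separate animals.

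Genes reaching 5 CPM or more in no fewer than 9 libraries (10064) were fitted together in R 4.3.3 with edgeR 4.0.16 (TMM, robust quasi-likelihood F test, diet as the only term, Benjamini-Hochberg over all of them). TMM-normalized CPM refer to reads on these genes. Standard errors are the absolute log2 fold change over the square root of F. Ratios used counts plus 0.5. Likeness used log2 CPM with a prior count of 2. Alternatives used DESeq2 1.42.0 and limma 3.58.1, with other tests, scalings, filters, a library size term and thinning. The edgeR, DESeq2 and limma tests were tried on simulated counts. These gave every gene the same biological variation, so the trial does not cover a gene as variable as BOLA-DRB3.

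The genes, lists and tests were chosen with earlier results of these data known. Genes named were the 3 members and the most alike genes, limited to 2 because they lack symbols. Planned lists of the class II pathway, class I presentation and cell type markers, ratios to leukocyte and macrophage genes, and promoter letters were not analysed, because symbols and sequences could not be matched.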

Additional observations from a re-analysis of the deposited data

Results flagged for a closer look

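Of 12 sets of values examined with Dixon's test, the level of each gene and each read ratio within each diet, 1 set held an animal that stood apart, where 0.6 would be expected by chance. BOLA-DRA in the Low animal D77 was at 703 CPM. The next Low animal was at 391, and the gap took 0.650 of the range of the 9 animals, against a critical value of 0.493. Without D77 the log2 fold change of BOLA-DRA was -0.34, with an edgeR adjusted p of 0.117.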

How the results depend on the processing

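The tests of the 3 genes stayed on the same side of the threshold under 10 of 11 alternatives for CD74 and under all 11 for both DR genes. With total counts only, CD74 passed at 0.59 (edgeR adjusted p = 0.00837) and BOLA-DRA turned to 0.11 (edgeR adjusted p = 0.680). The shift of the median gene under that scaling, to 0.30, accounts for both moves. Over all 11 alternatives, the log2 fold change of CD74 ran from 0.21 to 0.59, that of BOLA-DRA from -0.20 to 0.11 and that of BOLA-DRB3 from -0.48 to -0.04. With each animal left out they ran from 0.19 to 0.39, from -0.34 to -0.07 and from -0.58 to -0.13, and no call changed. BOLA-DRA over CD74 kept its direction and passed with pseudocounts of 0 and 5 and with medians (-0.32, exact permutation adjusted p = 0.0218), and ran from -0.51 to -0.41 with an animal left out. BOLA-DRB3 over CD74 ran from -0.69 to -0.40 with an animal left out. BOLA-DRB3 over BOLA-DRA, at -0.05 with means of all animals, turned to 0.22 with medians and ran from -0.19 to 0.079 with an animal left out. With total counts only, 3 correlations passed their adjusted threshold by a narrow margin (permutation, each adjusted p = 0.0492): r was 0.715 for CD74 with BOLA-DRB3 and 0.686 for BOLA-DRA with BOLA-DRB3 in High, and 0.778 for CD74 with BOLA-DRA in Low. The counts of list members were not run. No paired analysis was made, because no animal was on both diets and the labels do not give the block of each animal.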
